A study of Mus musculus with 6 samples.

Results

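Chemokine receptors of effector T cells were examined as 8 genes, *Ccr1*, *Ccr2*, *Ccr4*, *Ccr8*, *Ccr9*, *Ccr10*, *Cxcr4* and *Cxcr6*. They were found by their listed symbols in the gene-name column of each expression table. All 8 were present among the 35602 genes of the count table and among the 34714 genes of the replicate 1 tables.

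The cells were CD4+ T cells from mouse spleen, stimulated with anti-CD3/CD28 antibodies and treated with MAPK13-inhibitors or with the solvent DMSO before RNA-seq. MAPK13-inhibitors are named MAPK13-IN-1 in the sample labels and block the kinase encoded by *Mapk13*. Each group had 3 libraries, numbered 1 to 3. The DMSO group received stimulation and solvent. The MAPK13-inhibitors group received the same stimulation and the compound. The genotype of replicates 2 and 3 was wild type in both groups. Stimulation with compound or solvent lasted 72 h by the series description. The labels of replicates 2 and 3 place the compound, at 17.1 µM, or the solvent after day 1, so the sources differ on the timing. No genotype, dose or day of addition is given in the labels of the replicate 1 pair, and no strain is named there for any sample. Nothing says that replicates came from separate cultures or animals, so the p-values below measure only the spread between these libraries, which may be technical.

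Replicates 2 and 3 of each group were deposited as counts of reads per gene, with totals of 26874805 and 28487403 in the DMSO libraries and 33854760 and 32617702 in the MAPK13-inhibitors libraries. They are given below as CPM, counts relative to the library total after TMM scaling. In these libraries 1 count was worth 0.0282 to 0.0388 CPM. The replicate 1 pair came from another kind of library kit and was deposited as normalized values, taken to be FPKM, a level per length and per library size. Because the unit was inferred and the depth is not known, the pair was left out of the test. It is compared by log2 ratios of (FPKM + 1), in which scarce genes move little.

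Chemokine receptors are G protein-coupled receptors on the cell surface that read gradients of small secreted proteins, the chemokines, and steer the cell towards them. Naive T cells rely on receptors that lead them into lymphoid organs, whereas activated cells acquire receptors for inflamed tissue, skin, gut and other sites. The set of receptors on an effector T cell therefore shapes where it travels, and subsets such as Th2 and regulatory T cells are known for particular receptors.

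Of the 8 receptors, 2 rose and 3 fell with MAPK13-inhibitors in the count libraries. *Cxcr4* and *Ccr1* were higher, and *Ccr8*, *Ccr4* and *Ccr2* were lower. *Ccr9* and *Cxcr6* did not pass the test, and *Ccr10* had too few counts to enter it. The 5 calls among 7 tested receptors stand beside 63.8% of all 16269 genes tested, with the threshold at 0.05 after Benjamini-Hochberg adjustment in edgeR's quasi-likelihood test. The background was 31.5% for higher and 32.3% for lower genes. With the further demand of an absolute log2 fold change over 1, the same 5 receptors passed, beside 23.4% of all genes. The median log2 fold change was 0.06 over the 7 receptors and 0.01 over all genes tested. In the replicate 1 pair, 5 receptors reached 1 FPKM in both libraries, and 2 of these, *Cxcr4* and *Cxcr6*, had an absolute log2 ratio over 1, beside 6.97% of the 10448 genes at that level.

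**Figure D1:**
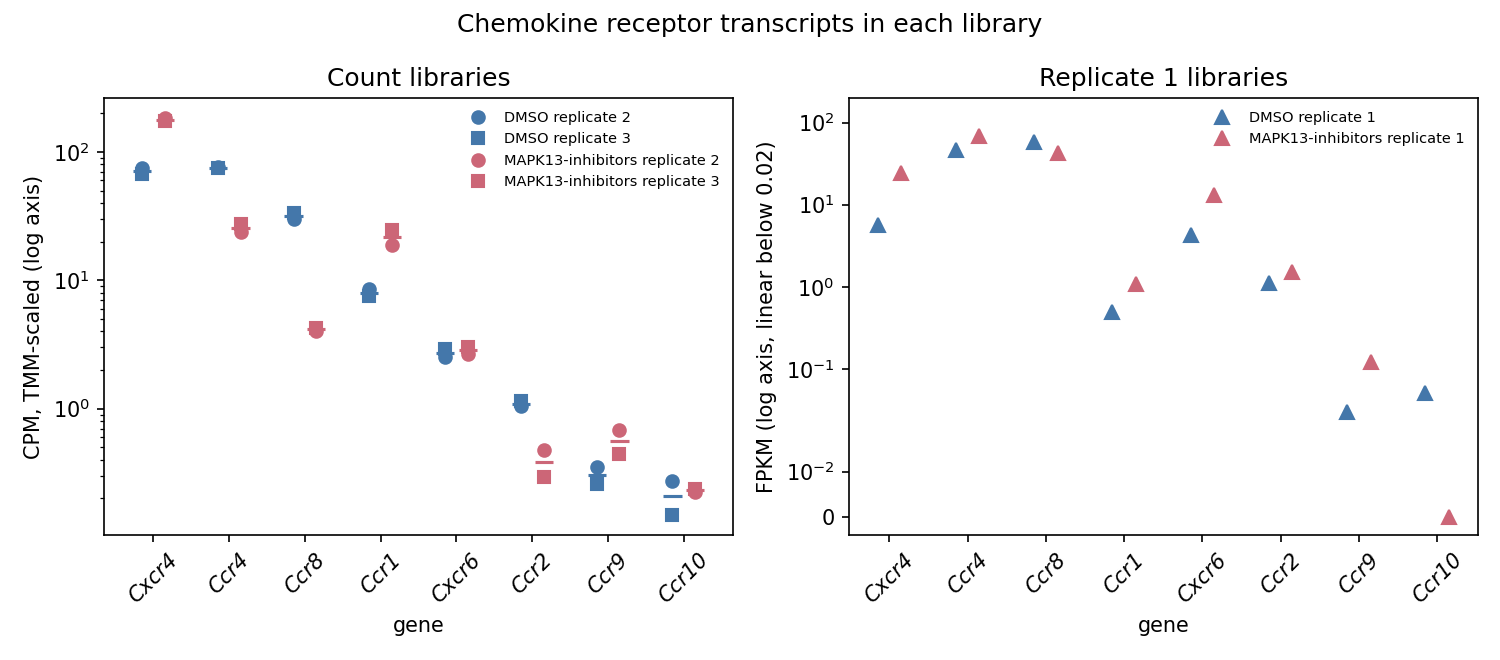
Level of each of the 8 receptors in each library, as TMM-scaled CPM on a log axis in the count libraries (left, horizontal lines show group means of 2 libraries) and as FPKM in the replicate 1 libraries (right, log axis that is linear below 0.02). In the count libraries *Cxcr4* and *Ccr1* lie higher and *Ccr4*, *Ccr8* and *Ccr2* lie lower with MAPK13-inhibitors, whereas *Ccr4* and *Ccr2* lie higher in the replicate 1 pair.

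*Cxcr4* encodes the receptor for Cxcl12, which retains lymphocytes in bone marrow and guides them in lymphoid tissue. It had 75.5 and 67.2 CPM in the DMSO libraries and 184 and 173 CPM in the MAPK13-inhibitors libraries. Both treated libraries lay above both controls, 2.51-fold on average, with a log2 fold change of 1.33 ± 0.07 (SE, n = 2 per group; adjusted p = 1.98e-07, edgeR's quasi-likelihood test). Replicate 1 moved the same way, from 5.68 FPKM with DMSO to 24.5 FPKM with MAPK13-inhibitors. *Cxcr4* was thereby higher with treatment in both sets of libraries.

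*Ccr1* encodes a receptor for inflammatory chemokines such as Ccl3 and Ccl5 and is found on myeloid cells as well as on activated T cells. Its levels were 8.49 and 7.50 CPM with DMSO and 18.9 and 24.4 CPM with MAPK13-inhibitors. The groups did not overlap, and the 2 treated libraries differed more from each other than the 2 controls did. The log2 fold change was 1.44 ± 0.15 (SE, n = 2 per group; adjusted p = 1.26e-05, edgeR's quasi-likelihood test). *Ccr1* in the replicate 1 pair was at 0.494 and 1.09 FPKM, again higher in the treated library.

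*Ccr8* encodes the receptor for Ccl1 and is known from Th2 and regulatory T cells. It was measured at 29.9 and 33.3 CPM in the DMSO libraries and at 4.05 and 4.25 CPM in the MAPK13-inhibitors libraries. Both treated libraries were far below both controls, 7.61-fold on average. The log2 fold change was -2.93 ± 0.12 (SE, n = 2 per group; adjusted p = 3.73e-08, edgeR's quasi-likelihood test), and 126 of the 16269 genes tested had a lower value. The replicate 1 pair moved in the same direction with a smaller ratio, from 58.7 to 43.2 FPKM.

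*Ccr4* encodes the receptor for Ccl17 and Ccl22, associated with Th2 cells, regulatory T cells and homing to skin. Its levels were 76.2 and 75.2 CPM with DMSO and 23.9 and 27.2 CPM with MAPK13-inhibitors. The groups were apart by 2.96-fold, with a log2 fold change of -1.56 ± 0.08 (SE, n = 2 per group; adjusted p = 1.79e-07, edgeR's quasi-likelihood test). The replicate 1 pair went the opposite way, with 46.4 FPKM in the DMSO library and 68.6 FPKM in the MAPK13-inhibitors library. *Ccr4* was thus lower with treatment in the count libraries and higher in the replicate 1 pair.

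*Ccr2* encodes the receptor for Ccl2, best known for the recruitment of monocytes and also carried by effector and memory T cells. It was scarce, with 27 and 31 counts with DMSO and 17 and 10 counts with MAPK13-inhibitors. These correspond to 1.05 and 1.14 CPM against 0.479 and 0.295 CPM, with the treated libraries lower and no overlap. The log2 fold change was -1.48 ± 0.40 (SE, n = 2 per group; adjusted p = 0.00816, edgeR's quasi-likelihood test). With DESeq2 the adjusted p was 0.0631, the highest of 12 alternatives, whose lowest was 0.00258, while the log2 fold change of -1.48 was the same, so the call but not the size depends on the tool. *Ccr2* in the replicate 1 pair went the opposite way, from 1.11 to 1.52 FPKM.

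*Cxcr6* encodes the receptor for Cxcl16 and is carried by effector and tissue-resident T cells. Its levels were 2.52 and 2.94 CPM with DMSO and 2.67 and 3.04 CPM with MAPK13-inhibitors. These ranges overlapped, and the log2 fold change of 0.06 ± 0.21 (SE, n = 2 per group; adjusted p = 0.81, edgeR's quasi-likelihood test) did not pass the test. *Cxcr6* in the replicate 1 pair went from 4.25 FPKM with DMSO to 13.1 FPKM with MAPK13-inhibitors, a log2 ratio of 1.43. Whether the count libraries and the replicate 1 pair differ in this was not tested.

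*Ccr9*, the receptor for Ccl25 in homing to the small intestine, had 9 and 7 counts with DMSO and 24 and 15 counts with MAPK13-inhibitors. Both treated libraries were higher, but the log2 fold change of 0.88 ± 0.49 (SE, n = 2 per group; adjusted p = 0.137, edgeR's quasi-likelihood test) did not pass at this depth. *Ccr10*, a receptor for the epithelial chemokines Ccl27 and Ccl28, had 7 and 4 counts with DMSO and 8 counts in each MAPK13-inhibitors library. It did not enter the test, and a difference between the groups was not detectable at this depth. The replicate 1 libraries had *Ccr9* at 0.0293 and 0.122 FPKM, and *Ccr10* at 0.05 FPKM with DMSO and listed at 0 with MAPK13-inhibitors.

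**Figure D2:**
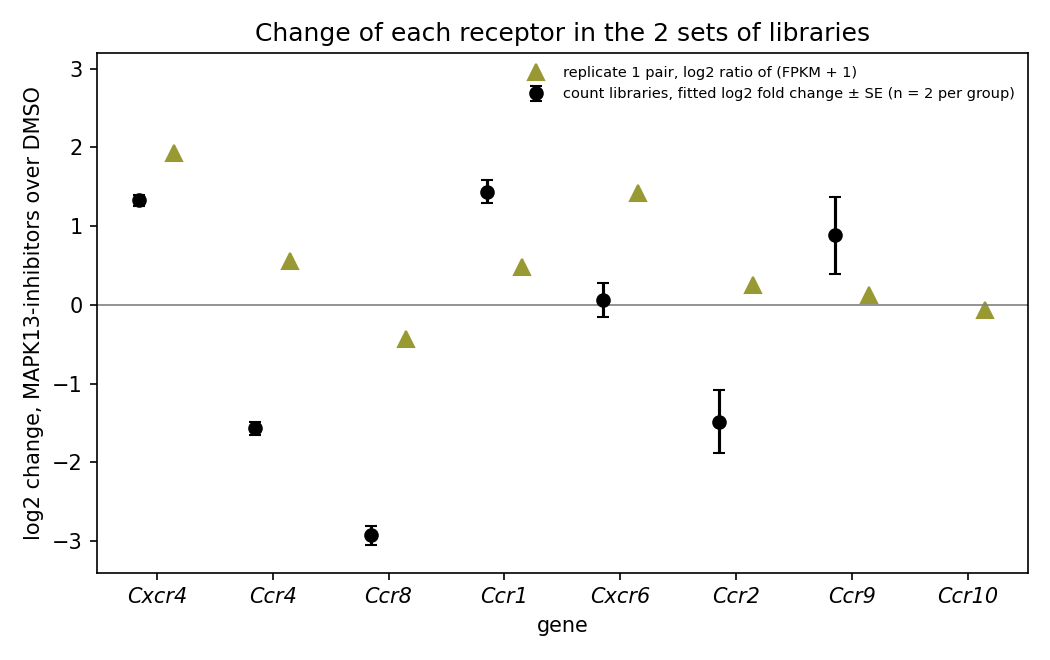
Log2 change of each receptor with MAPK13-inhibitors, as the fitted value of the count libraries with its SE (black circles, 2 libraries per group, *Ccr10* not fitted) and as the log2 ratio of (FPKM + 1) in the replicate 1 pair (triangles, 1 library per group, no error). *Cxcr4*, *Ccr1* and *Ccr8* lie on the same side of 0 in both, and *Ccr4* and *Ccr2* lie on opposite sides.

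The replicate 1 pair shared the direction of 3 of the 5 receptors that passed the test. Over all genes called in the count libraries, 6714 of 10138 with a replicate 1 ratio other than 0 (66.2%) had the same sign there. The kit, the numbering and the processing differ together between the 2 sets of libraries. So does the level of B cell markers beside CD4 T cell markers, given below. No dose, genotype or day of addition is given for the replicate 1 pair. The parts of these in the opposite directions of *Ccr4* and *Ccr2* cannot be told apart.

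Per length, the receptors were far from equally abundant. As CPM per kilobase of the longest coding transcript in GENCODE, *Cxcr4* led in the DMSO count libraries with 39.5 ± 3.25 (mean ± SD, n = 2). *Ccr4* and *Ccr8* followed with 27 ± 0.254 and 26.9 ± 2.05 CPM per kilobase (SD, n = 2), and this pair could not be ranked because their libraries overlapped. *Ccr1* at 2.82 and *Cxcr6* at 1.43 CPM per kilobase came next, each clear of its neighbours. *Ccr2*, *Ccr10* and *Ccr9* were all at or under 0.191 CPM per kilobase on average.

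With MAPK13-inhibitors the order was led by *Cxcr4* at 99.1 ± 4.29 CPM per kilobase (SD, n = 2). *Ccr4* at 9.12 ± 0.829 and *Ccr1* at 7.64 ± 1.39 CPM per kilobase overlapped in their libraries. *Ccr8* lay below them at 3.53 ± 0.116 CPM per kilobase (SD, n = 2), having shared the place after *Cxcr4* in the controls. *Cxcr4* made up 42.2% and 38.4% of the summed level per length of the 8 receptors in the DMSO libraries, and 83.4% and 80.1% in the MAPK13-inhibitors libraries. The share of *Ccr8* went from 25.7% and 29.3% to 2.82% and 3.02%. The summed level itself was 99.1 and 96.9 CPM per kilobase with DMSO and 123 and 120 CPM per kilobase with MAPK13-inhibitors.

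In the replicate 1 pair the order within each library was another one. *Ccr8* led with DMSO at 50.3% of the summed FPKM of the 8 receptors, and *Ccr4* led with MAPK13-inhibitors at 45.1%. *Cxcr4* held 4.86% and 16.1% there. The rise of the *Cxcr4* share was thus seen in both sets of libraries, from very different starting shares. Levels in the 2 sets were normalized separately and are set side by side only as shares within a library.

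**Figure D3:**
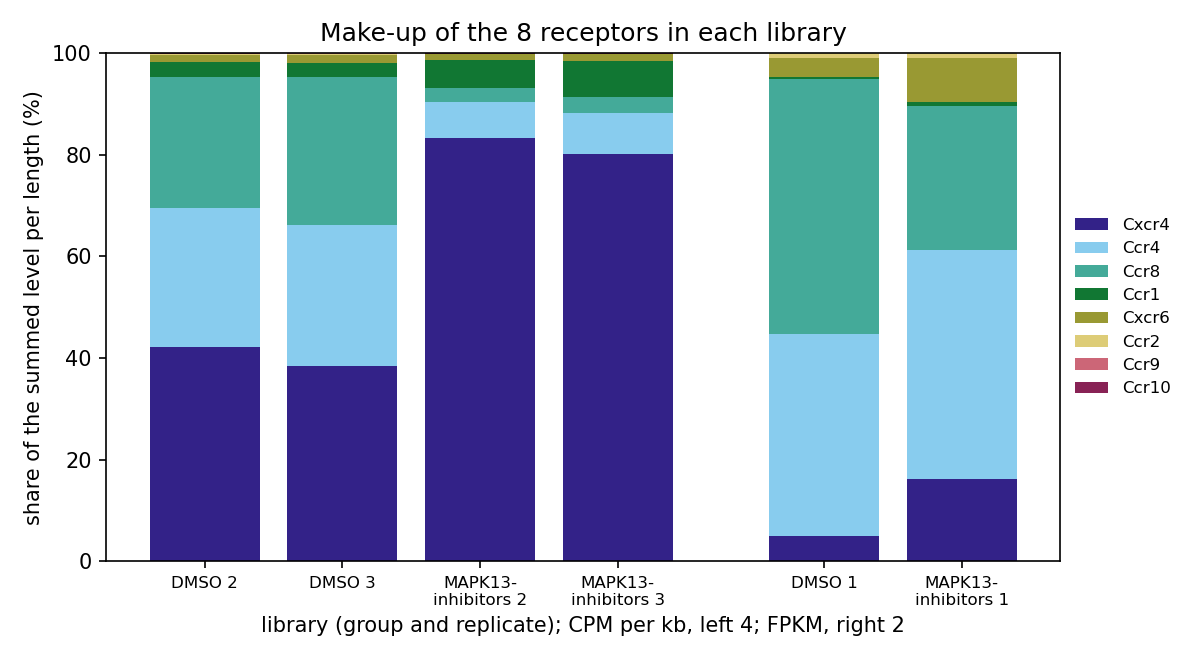
Share of each receptor in the summed level per length of the 8 receptors, in percent, for each of the 6 libraries (CPM per kilobase in the left 4, FPKM in the right 2). *Cxcr4* takes 83.4% and 80.1% in the MAPK13-inhibitors count libraries, and *Ccr8* and *Ccr4* take most of both replicate 1 libraries.

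The other receptors of the family gave the setting of these levels. Calls in the lists that follow stand beside 63.8% of all genes called, 31.5% higher and 32.3% lower. Among 10 further chemokine receptors, 9 were tested and 4 were higher, with a median log2 fold change of 0.17. *Ccr7*, which leads T cells into lymph nodes, exceeded every one of the 8 receptors per length, with 331 CPM per kilobase in DMSO and 384 with MAPK13-inhibitors. It was slightly higher with treatment in the count libraries, with a log2 fold change of 0.21 ± 0.06 (SE; adjusted p = 0.0102, edgeR). In the replicate 1 pair *Ccr7* rose more, from 116 to 294 FPKM, a log2 ratio of 1.33. Together the 8 receptors held 20% and 19.7% of the summed level per length of all 18 receptors in the DMSO libraries and 21.9% and 19.7% in the MAPK13-inhibitors libraries. The corresponding FPKM shares of the replicate 1 pair were 45.2% and 31.9%.

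*Ccr3*, an eosinophil and Th2 receptor, had 20 and 18 counts with DMSO and 189 counts in each treated library, a log2 fold change of 2.92 ± 0.24 (SE). *Cxcr5*, which leads cells into B cell follicles, rose by 0.38 ± 0.06 on the log2 scale (SE). *Xcr1*, a dendritic cell receptor, had 0 and 4 counts with DMSO and 27 and 16 counts with MAPK13-inhibitors. It entered the test only through the treated libraries, where it was high, which favours its call. *Ccr6* (456 and 384 counts with DMSO, 585 and 651 treated), *Cxcr3* (439 and 445, then 503 and 652), *Cxcr1* (29 and 34, then 24 and 34) and *Cx3cr1* (35 and 15, then 17 and 25) did not pass. *Cxcr2*, with 6 and 14 counts with DMSO and 0 and 3 with treatment, was not tested and was at least 4.32-fold lower when the treated group was set to 3 counts per library.

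Of 5 atypical receptors, which bind chemokines without classical signalling, 3 were tested and 2 were higher. *Ackr3*, which shares the ligand Cxcl12 with *Cxcr4*, had 45 and 51 counts with DMSO and 216 and 210 counts with MAPK13-inhibitors (log2 fold change 1.76 ± 0.19, SE). Its replicate 1 values were 0.0157 FPKM with DMSO and a listed 0 with MAPK13-inhibitors. *Ccrl2* rose by 0.81 ± 0.10 on the log2 scale (SE). *Ackr2* did not pass, with 17 to 27 counts.

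Ligands of the 8 receptors were measured in the same cells. Of 17 ligand genes, 9 were tested, 3 were higher, 1 was lower and 5 did not pass, with a median log2 fold change of 0.18 beside 0.01 over all genes. These calls are 44.4% of the ligands tested, under the 63.8% of all genes, and their number went from 4 to 2 with DESeq2. *Ccl28* and *Ccl1* entered the test only through the group where they were high, which favours such calls. All 8 ligands with at least 1 FPKM in both replicate 1 libraries were higher in the treated one, with 1 library per group. The median log2 ratio was 0.05 over the 10448 genes at that level and 0 over all genes. The share of all genes that were higher there was not computed, which also limits the replicate 1 counts of the lists below. Among the ligands of *Ccr1*, *Ccl5* had 257 and 241 counts with DMSO and 1118 and 1289 counts with MAPK13-inhibitors, a log2 fold change of 1.89 ± 0.12 (SE). *Ccl5* thereby rose together with *Ccr1*, and in the replicate 1 pair it went from 13.3 to 246 FPKM. *Ccl3* (11.0 and 9.59 CPM on average with DMSO and treatment) and *Ccl9* (14 and 5 counts, then 22 and 18) did not pass in the count libraries. *Ccl3* in the replicate 1 pair was at 24.0 and 213 FPKM and *Ccl9* at 0.733 and 15.3 FPKM.

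The ligand of *Ccr8* moved as its receptor did in the count libraries. *Ccl1* had 36 and 40 counts with DMSO and 5 and 9 counts with MAPK13-inhibitors, a log2 fold change of -2.80 ± 0.43 (SE; adjusted p = 0.00024, edgeR). Its replicate 1 values went the other way, from 2.89 to 39.3 FPKM, while *Ccr8* was lower in both. Of the ligands of *Ccr4*, *Ccl22* did not pass, with 56.1 CPM on average in DMSO and 63.6 CPM with treatment. *Ccl17* was not tested, with 0 and 4 counts against 13 and 5.

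The ligands of the remaining receptors were mixed. *Cxcl12*, the ligand of *Cxcr4*, had 0 counts in both DMSO libraries and 18 and 6 counts with MAPK13-inhibitors, at least 3.02-fold higher when the DMSO group is set to 3 counts per library. *Cxcl16*, the ligand of *Cxcr6*, did not pass, with 2.01 CPM on average in DMSO and 1.95 CPM with treatment (log2 fold change -0.05 ± 0.27, SE). It went from 1.98 to 9.84 FPKM in the replicate 1 pair, where *Cxcr6* was also higher. *Ccl25*, the ligand of *Ccr9*, did not pass (8.80 and 7.94 CPM). *Ccl27a* rose by 0.49 ± 0.15 and *Ccl28* by 2.24 ± 0.81 on the log2 scale (SE), beside the few counts of their receptor *Ccr10*. *Ccl28* went from 5 and 0 to 15 and 17 counts and entered the test only through the treated libraries. *Ccl2*, a ligand of *Ccr2*, had 10 counts in 1 DMSO library and 0 in the other 3 libraries, and *Ccl27b* had 4 to 15 counts.

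Signalling genes downstream of the receptors were read in the same way. Of 14 G protein and kinase genes, 7 fell and 3 rose (71.4% called beside 63.8% of all genes; median log2 fold change -0.17). Replicate 1 had 8 of these higher and 4 lower among 12 at 1 FPKM or more in both libraries (median log2 ratio of the list 0.19). *Pik3r5* and *Pik3r6*, regulatory subunits of the phosphoinositide kinase that G protein-coupled receptors activate, rose by 1.20 ± 0.07 and 1.26 ± 0.13 on the log2 scale (SE). *Plcb2*, a phospholipase on the same path, had a log2 fold change of -1.08 ± 0.09, and the G protein subunit *Gng5* had -0.62 ± 0.07 (SE).

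Of 14 genes that damp receptor signals, 8 fell and 3 rose (78.6% called beside 63.8% of all genes; median log2 fold change -0.28). In replicate 1, 6 were higher and 6 lower among 12 at that level (median log2 ratio of the list 0.02). *Rgs16* and *Rgs1*, which end G protein signals, had log2 fold changes of -2.19 ± 0.08 and -1.25 ± 0.06 (SE). The receptor kinases *Grk6* and *Grk5*, which prepare active receptors for desensitization, moved apart, at -1.93 ± 0.09 and 0.79 ± 0.11 (SE). *Rgs16* and *Rgs1* were higher in the treated library of the replicate 1 pair (27.6 to 47.0 and 111 to 227 FPKM). *Grk5* was also higher there (3.11 to 6.63 FPKM), and *Grk6* was lower (67.0 to 40.5 FPKM).

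Of 21 genes of the migration machinery, 8 rose and 7 fell (71.4% called beside 63.8% of all genes; median log2 fold change 0.08), and 7 were higher and 14 lower in replicate 1. *Rac2*, *Fermt3* and *Itgb2* had log2 fold changes of -0.70, -0.65 and -0.52, and *Rhoh* had 0.60. In edgeR's test against a fold of 1.5, 0 of the 21 were called, with 1 at an unadjusted p under 0.05, beside 14 called with DESeq2 against no change. Of 18 transcription factors tied to effector homing, 9 fell and 2 rose (61.1% called beside 63.8% of all genes; median log2 fold change -0.15). Replicate 1 had 10 higher and 6 lower among 16 at 1 FPKM or more in both libraries (median log2 ratio of the list 0.33). *Foxp3* and *Gata3*, factors of regulatory and Th2 cells, in which *Ccr4* and *Ccr8* are known, had log2 fold changes of -1.44 ± 0.09 and -1.09 ± 0.08 (SE). *Satb1* was at -1.06 ± 0.07 and *Rora* at 1.71 ± 0.08 (SE). Of 8 surface markers of effector cells, 4 rose and 4 fell in the count libraries, and 6 were higher and 2 lower in replicate 1. Among them were *Cd44* (1.06 ± 0.06), *Il2ra* (-1.27 ± 0.07), *Tnfrsf4* (-1.76 ± 0.09) and *Tnfrsf9* (-1.33 ± 0.13, log2 fold change ± SE).

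Markers of the labelled cell type and of other cells were read beside these changes. The methods name a kit that isolates mouse CD4 T cells from the spleen, a step meant to remove the other cells. Of 12 CD4 T cell markers, 9 were found and none of these was at 0 in any library. Their summed level, scaled by library totals, was 1870 and 1899 CPM with DMSO and 1047 and 1181 CPM with MAPK13-inhibitors, and 8 of 9 fell. The most abundant was *Cd5* in the DMSO libraries (408 and 419 CPM) and *Cd4* in the treated libraries (280 and 294 CPM). *Cd4* itself had a log2 fold change of -0.00 ± 0.05, whereas *Cd3g* had -1.56 ± 0.09 and *Thy1* had -1.63 ± 0.10 (SE), values near that of *Ccr4*. These 3 were picked after their values were seen. In bulk RNA, fewer cells of a type and less RNA per cell cannot be told apart. In the replicate 1 pair, where *Ccr4* was higher, the summed markers were at 1358 and 1340 FPKM.

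Set against the summed CD4 T cell markers of the same library, a ratio chosen after the data were seen, the receptors kept their directions with other sizes. *Ccr8* had 15.3 and 16.7 CPM per 1000 CPM of these markers with DMSO and 4.06 and 3.74 with MAPK13-inhibitors, 4.11-fold lower on average. *Ccr4* had 39.1 and 37.8 against 24.0 and 24.0, 1.60-fold lower. *Ccr2* had 0.537 and 0.573 against 0.480 and 0.260, also without overlap. *Cxcr4* and *Ccr1* were 4.65-fold and 4.97-fold higher on this scale, without overlap. The summed markers were themselves 1.69-fold lower with treatment, so a gene with unchanged CPM moves up on this scale. The share of all genes that separate on it was not computed. *Cxcr6*, whose CPM overlapped between the groups, had 1.29 and 1.48 against 2.68 and 2.67 and did not overlap here, which is no evidence of a rise. The scarce *Ccr10* likewise no longer overlapped (0.139 and 0.0739 against 0.226 and 0.208), and *Ccr9* was 3.46-fold higher.

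Regulatory T cell markers summed to 1596 and 1570 CPM with DMSO and 652 and 766 CPM with MAPK13-inhibitors, with 4 of 6 lower, 1 higher and *Il2ra* the most abundant in each. This sum was 2.23-fold lower with treatment. On the same scale of library totals, *Ccr8* and *Ccr4* had log2 fold changes of -2.80 and -1.44. In that list *Il2ra* alone had 924 and 919 CPM with DMSO, and it is also among the effector surface markers above. *Lrrc32* was the higher one (log2 fold change 0.52 ± 0.09, SE), and *Ikzf2* did not pass (-0.01 ± 0.08, SE). No marker of the list was at 0. Its replicate 1 values were 741 and 660 FPKM. The part of regulatory T cells in the fall of *Ccr8* and *Ccr4* was not tested.

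B cells, which also carry *Cxcr4*, *Cxcr5* and *Ccr7*, left transcripts in all libraries. Their 10 markers summed to 960 and 937 CPM with DMSO and 1349 and 1339 CPM with MAPK13-inhibitors, 1.42-fold higher, with 8 higher, 1 lower and none at 0. With treatment *Pax5* was the most abundant of them (276 and 281 CPM). The 9 CD4 T cell markers found summed to 1870 and 1899 CPM with DMSO. With treatment they summed to 1047 and 1181 CPM, less than the B cell markers. Such sums depend on the genes listed, and the receptor levels above are those of the whole preparation. In the replicate 1 pair the B cell sum was 52.6 and 37.1 FPKM, lower in the treated library, beside 1358 and 1340 FPKM of CD4 T cell markers. *Cxcr4* was higher in that treated library as well. The part of B cells in the rise of *Cxcr4* in the count libraries was not tested.

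Monocyte and macrophage markers, from cells that carry *Ccr1* and *Ccr2*, summed to 22.0 and 20.4 CPM with DMSO and 48.4 and 40.5 CPM with MAPK13-inhibitors, 2.1-fold higher. Of 9 markers, 8 were tested, 5 were higher and 1 was lower, with *Cd68* the most abundant in each of these 4 libraries. *Fcgr1* was at 0 in 1 DMSO and 1 treated library. Their replicate 1 sums were 7.89 and 11.7 FPKM. *Ccr1* rose beside these markers and *Ccr2* fell beside them, and their part in either was not tested. Plasmacytoid dendritic cell markers, a cell type known for *Ccr9*, summed to 213 and 205 CPM with DMSO and 306 and 289 CPM with treatment, with 2 of 4 tested higher and 1 lower. The lower one, *Cox6a2*, had 401 and 428 counts with DMSO and 50 and 48 with treatment. Their replicate 1 sums were 29.1 and 26.4 FPKM. Their defining gene *Siglech* had 0 counts in both DMSO libraries and 6 and 2 counts with treatment.

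The remaining marker lists cover cells not set beside a receptor above. CD8 T and NK cell markers summed to 12.6 CPM in each DMSO library and 7.44 and 9.78 CPM with MAPK13-inhibitors, with *Klra8* at 0 in all 4 and 2 of 3 tested lower. Their replicate 1 sums went the other way, from 4.09 to 12.7 FPKM, with *Cd8b1* the most abundant (3.36 and 7.84 FPKM). *Cxcr6* was higher in that library as well, and the part of these cells in it was not tested. Plasma cell markers went from 1079 and 1066 to 812 and 871 CPM, with 3 of 5 tested higher and 2 lower. The most abundant was *Irf4*, which activated T cells also express, and which was lower with treatment (834 and 834, then 553 and 602 CPM). Their replicate 1 sums were 348 and 226 FPKM. Erythroid markers went from 7.52 and 7.09 to 94.0 and 66.7 CPM, an 11.0-fold higher sum led by *Hbb-bs* with treatment. Neutrophil and basophil and mast cell markers summed to at most 0.858 and 1.13 CPM in any count library, with *S100a9* and *Mcpt8* at 0 in all 4.

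The genes whose pattern was nearest to each receptor were sought over 5 values, the 4 centred log2 CPM and the replicate 1 log2 ratio, among up to 10378 genes. The measure was the root mean square difference on the log2 scale. *Cxcr4* was nearest to *Bcl2l11*, which promotes apoptosis (0.048), and *Ccr8* to *Egr1*, an early gene of T cell receptor signals (0.11). *Ccr4* was nearest to *Tbx6* (0.024), *Cxcr6* to *Abcb1a* (0.047), *Ccr9* to *Zfp322a* (0.047), *Ccr1* to *Zfp948* (0.099) and *Ccr2* to *Gm5617* (0.10). *Egr1* had 341 and 332 CPM with DMSO and 49.8 and 47.1 CPM with MAPK13-inhibitors. *Bcl2l11* had 125 and 116 CPM against 290 and 276 CPM.

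The receptors also share positions in the genome (coordinates of build GRCm38). Of the 8 genes, 6 lie on mouse chromosome 9, with *Cxcr4* on chromosome 1 and *Ccr10* on chromosome 11. *Ccr9* (chr9:123767211-123783457), *Cxcr6* (chr9:123806477-123811754), *Ccr1* (chr9:123962126-123968692) and *Ccr2* (chr9:124101918-124109140) form a cluster that also holds *Xcr1* and *Ccr3*. *Ccr8* (chr9:120092133-120094906) and *Ccr4* (chr9:114490316-114505476) lie apart from it on the same chromosome. Neighbours in the cluster did not move alike: *Ccr1* and *Ccr3* rose, *Ccr2* fell, and *Cxcr6* and *Ccr9* did not pass the test.

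Reads can be shared between genes that overlap or resemble each other, and no source used here says whether the counting of replicates 2 and 3 used strand. *Cxcr6* lies inside *Fyco1* and *Ccr10* inside *Cntnap1*, each on the opposite strand and with 0 shared exonic bases. *Fyco1* and *Cntnap1* did not pass the test (log2 fold changes of 0.17 ± 0.08 and -0.36 ± 0.18, SE). For *Ccr9*, 18.8% of the exonic bases overlap the antisense gene *AC165425.1*, so its few counts are uncertain. Of the stretches of 75 bases in *Ccr2* transcripts, 1.16% also occur outside this gene, and of those in *Ccr4* transcripts 0.399% do. *Ccr1*, *Ccr8*, *Ccr10*, *Cxcr4* and *Cxcr6* shared 0 such stretches with any other gene.

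Promoters, 250 bases before to 50 bases after a gene's start, were found in the RefSeq table (GRCm38.p6) for 7 of the 8 receptors, all except *Ccr10*. Motifs were searched on both strands: TGANTCA (AP-1), GGAAA (the NFAT core), CTTTGA (TCF/LEF), TGACGTCA (CRE), CACCC (KLF) and ACGTG (HIF). They occur in 7.81%, 61.3%, 16.0%, 1.79%, 57.5% and 19.6% of all 32851 promoters of this length, in that order. AP-1 matched in *Ccr4* alone of the 7 receptors, TCF/LEF in *Ccr4* and *Cxcr6*, and CRE and HIF in 0 of 7. The promoters of the 4 receptors with the smallest adjusted p-values are shown, as 2 that rose and 2 that fell, 5′ to 3′ on the gene's strand with every motif match in capitals. The matches do not overlap, and in *Ccr4* those of NFAT and AP-1 adjoin and form 1 run of capitals. The *Ccr4* window lies inside the gene's annotated span. G and C made up 59.3% of the *Cxcr4* promoter, 54.0% of that of *Ccr8*, 46.3% of that of *Ccr4* and 44% of that of *Ccr1*, beside a median of 52.7% over all promoters.
*Cxcr4* promoter, chr1:128592250-128592549, minus strand: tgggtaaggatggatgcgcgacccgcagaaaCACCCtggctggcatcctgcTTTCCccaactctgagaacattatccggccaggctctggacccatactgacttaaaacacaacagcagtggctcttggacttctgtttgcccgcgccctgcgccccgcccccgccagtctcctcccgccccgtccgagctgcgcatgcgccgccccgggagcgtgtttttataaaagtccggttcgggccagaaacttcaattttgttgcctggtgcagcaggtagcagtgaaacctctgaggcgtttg
*Ccr1* promoter, chr9:123968643-123968942, minus strand: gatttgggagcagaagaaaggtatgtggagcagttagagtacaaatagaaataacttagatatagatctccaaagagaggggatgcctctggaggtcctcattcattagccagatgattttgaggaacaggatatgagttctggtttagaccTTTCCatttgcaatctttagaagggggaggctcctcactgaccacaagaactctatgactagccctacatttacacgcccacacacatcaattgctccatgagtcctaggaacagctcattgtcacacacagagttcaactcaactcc
*Ccr8* promoter, chr9:120091883-120092182, plus strand: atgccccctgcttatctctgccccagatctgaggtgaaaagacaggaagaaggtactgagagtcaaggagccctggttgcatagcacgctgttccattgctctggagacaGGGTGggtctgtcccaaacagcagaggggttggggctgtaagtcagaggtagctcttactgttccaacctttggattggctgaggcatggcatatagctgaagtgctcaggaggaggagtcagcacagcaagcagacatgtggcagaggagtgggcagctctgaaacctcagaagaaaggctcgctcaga
*Ccr4* promoter, chr9:114496495-114496794, minus strand: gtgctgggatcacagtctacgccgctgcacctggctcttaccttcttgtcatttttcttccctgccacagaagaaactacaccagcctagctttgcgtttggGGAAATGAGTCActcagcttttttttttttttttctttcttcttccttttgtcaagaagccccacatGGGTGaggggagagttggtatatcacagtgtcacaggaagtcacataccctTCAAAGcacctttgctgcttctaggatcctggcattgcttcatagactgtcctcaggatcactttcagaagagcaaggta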

How the data were processed

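RNA-seq of 6 libraries was used. For replicates 2 and 3 the authors deposited counts per gene, without normalization, on build mm10. The submitters' notes name fastp 0.21.0, HISAT2 2.1.0, StringTie 2.1.5 and DESeq2 1.30.1. The authors gave the replicate 1 pair as normalized values per gene, taken to be FPKM, with FastQC and HISAT2 named without versions and no tool for quantification. This unit was inferred, since the values are not whole and sum to 405150 and 390729 over 34714 genes. In all, 0 columns of values were left unused.

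Counts were tested in R 4.3.3 with edgeR 4.0.16 (filterByExpr with minimum count 10 and minimum total 15, TMM factors of 0.960, 0.955, 1.05 and 1.04, quasi-likelihood test, Benjamini-Hochberg adjustment over all 16269 genes), 2 libraries against 2 with no covariate, after tests on simulated data. SEs are the absolute log2 fold change over the square root of the F statistic. A group with 3 or fewer counts in each library was taken as at the floor, which covers counting error only. The 2 libraries of a group differed by more than sampling noise (mean chi-square per gene 2.94 with DMSO and 8.82 with MAPK13-inhibitors). Lengths, overlaps and shared stretches came from GENCODE vM21 (GRCm38), and receptor positions from RefSeq. Pattern values used a pseudocount of 0.1 CPM. Python 3.11 was used for tables and figures.

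The members and lists were chosen with earlier results of these data known. Named were all 8 receptors, other receptors and ligands with at least 10 counts in any library, of each further list up to 4 tested genes by smallest p-value, the nearest gene in pattern, overlapping neighbours, and marker lists by their sums, most abundant genes and genes at 0. Some genes that these rules name are not reported here. Alternatives were RLE, upper-quartile and total scaling, other filters, DESeq2 1.42.0, a replicate block, a test against a fold of 1.5, each library left out, and a pseudocount of 0.1 FPKM.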

Additional observations from a re-analysis of the deposited data

Results flagged for a closer look

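2 receptors moved in opposite directions in the 2 sets of libraries. *Ccr4* was lower in both MAPK13-inhibitors libraries of the count table than in both DMSO libraries. It was higher in the treated library of the replicate 1 pair, with a log2 ratio of 0.55. *Ccr2* was likewise lower in both treated libraries of the count table and higher in the replicate 1 pair, with a log2 ratio of 0.25 (0.42 with a pseudocount of 0.1). The replicate 1 pair is 1 library per group with an unknown depth, and the difference between the sets was not tested.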

How the results depend on the processing

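Of the 5 receptors that passed the test, *Cxcr4*, *Ccr1*, *Ccr4* and *Ccr8* kept their direction and stayed past the threshold in all 12 alternatives of the count fit. Their log2 fold changes ranged from 1.24 to 1.45, 1.23 to 1.61, -1.67 to -1.44 and -3.02 to -2.80. *Ccr2* kept its direction (-1.87 to -1.19) and missed the threshold with DESeq2 only, where 4 receptors passed. *Cxcr6* changed sign without passing the test when DMSO replicate 2 was left out (-0.055) or MAPK13-inhibitors replicate 3 was left out (-0.037), beside 0.171 without DMSO replicate 3. The cause was not tested for *Ccr2* or *Cxcr6*. *Ccr10* entered only the fit with no filter, with a log2 fold change of 0.14 (adjusted p = 0.905, edgeR).

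Of all genes, 10374 passed in the reported fit (5122 higher and 5252 lower). The balance of directions depends on the scaling, with 6176 higher and 4302 lower by library totals and 5823 higher and 4633 lower by upper quartile. A test against a fold of 1.5 gave 4233 genes, 2145 higher and 2088 lower, since it asks for a larger change, and the same number of receptors, 5. With a library left out, which leaves 1 library in a group that is assumed to vary like the other group, 8731 to 10943 genes and 5 receptors passed. Scaling by library totals raised the median log2 fold change of all genes by 0.13, and relative to that shift the 5 calls were as reported. With the replicate number as a block, 10645 genes and 5 receptors passed, and the block changed no receptor's call. The deviations of same-numbered libraries had a correlation of -0.0064 across genes, and the numbers were not taken to pair the samples. Among the further lists, 9 of 96 counts of calls moved by over 1.5 times, 7 of them in the test against a fold of 1.5, where the migration list went from 15 calls to 0 (edgeR; 1 at an unadjusted p under 0.05, and 14 called with DESeq2 against no change), the G protein and kinase list from 10 to 4, the genes that damp signals from 11 to 3, the transcription factors from 11 to 5, the surface markers from 8 to 4, the ligands from 4 to 2 and the other receptors to 3 of 9 tested. The other 2 are the ligands, from 4 calls to 2 with DESeq2 and with 10 counts asked of every library, which tests fewer genes. With a pseudocount of 0.1 the replicate 1 log2 ratios kept their signs, and those of *Ccr1*, *Ccr9*, *Ccr2* and *Ccr10* moved by over 1.5 times, to 1.01, 0.78, 0.42 and -0.59.

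Depth limits *Ccr2*, *Ccr9* and *Ccr10*, with at most 31 counts in any library, and the replicate 1 pair has no replicate check.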
